A study of Mus musculus with 54 samples.

Results

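The fatty acid binding protein genes examined here were Fabp1, Fabp3, Fabp4, Fabp5 and Fabp7, 5 of the 54232 genes counted, and they were taken by the symbol of each Ensembl identifier. Fabp7 was chosen by its lower counts after treatment in the 20-month brain, and the genes as a family were selected on their levels across tissues, with earlier results of these libraries known. Both patterns are therefore described without a test. RNA was sequenced from 54 libraries of mice that received 14 daily injections of either vehicle (a mix of DMSO, PEG400 and saline) or 22.5 mg/kg of Cmpd60, an inhibitor of the histone deacetylases HDAC1 and HDAC2. Male BL6 mice of about 20 months gave brain (6 vehicle, 6 Cmpd60), heart (6 vehicle, 5 Cmpd60) and kidney (5 vehicle, 6 Cmpd60). Brains of the APPSWE cohort came from mice of 6 to 7 months on a BL6 background. They were APPSWE-1349 mice, which carry human amyloid precursor protein with the Swedish mutation as a transgene (6 vehicle, 4 Cmpd60), or littermates without it (5 vehicle, 5 Cmpd60). The sources used here do not say which tissues of the 20-month mice came from the same animal, nor how brains were dissected.

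Fatty acid binding proteins are small cytosolic proteins that hold a long-chain fatty acid inside a barrel-shaped fold and carry it between membranes, mitochondria, lipid droplets and the nucleus, where some of them hand their ligand to PPAR receptors. Fabp1 is the liver type, Fabp3 the heart type of cardiac and skeletal muscle, Fabp4 the adipocyte type that is also made by capillary endothelium and macrophages, and Fabp5 the epidermal type found in many cells, endothelium and neurons among them. Fabp7 is the brain type, known for radial glia, astrocytes, oligodendrocyte precursors and the ensheathing glia of the olfactory system. In RefSeq's annotation of GRCm38.p6, Fabp5 and Fabp4 lie close together in 1 gene cluster, while Fabp1, Fabp3 and Fabp7 each lie on a chromosome of their own.

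The RefSeq promoter set of build GRCm38.p6 held Fabp7, Fabp3 and Fabp1 but had no entry for Fabp4 and Fabp5, so only the former are shown. Fabp7 had its highest level in brain, Fabp3 in heart and Fabp1 in kidney. The 250 bases before each start site are shown 5′ to 3′ on the plus strand. Capitals mark matches on either strand to 4 motifs. These were TATAAA for the TATA box and CCAAT for the box of that name, AGGTCA for nuclear receptors such as the PPARs, and TGGGAA for RBPJ, the DNA-binding factor of Notch signalling.
Fabp7, chr10:57784673-57784922: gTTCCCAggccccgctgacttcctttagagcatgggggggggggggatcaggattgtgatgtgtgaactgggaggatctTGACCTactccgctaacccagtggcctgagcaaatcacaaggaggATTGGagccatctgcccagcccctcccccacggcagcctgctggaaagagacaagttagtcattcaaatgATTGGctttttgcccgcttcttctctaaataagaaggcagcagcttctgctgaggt
Fabp3, chr4:130308488-130308737: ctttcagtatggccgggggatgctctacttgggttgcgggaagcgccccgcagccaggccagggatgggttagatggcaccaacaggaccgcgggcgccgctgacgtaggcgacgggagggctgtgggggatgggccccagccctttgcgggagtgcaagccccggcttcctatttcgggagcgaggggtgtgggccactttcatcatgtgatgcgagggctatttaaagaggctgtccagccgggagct
Fabp1, chr6:71199629-71199878: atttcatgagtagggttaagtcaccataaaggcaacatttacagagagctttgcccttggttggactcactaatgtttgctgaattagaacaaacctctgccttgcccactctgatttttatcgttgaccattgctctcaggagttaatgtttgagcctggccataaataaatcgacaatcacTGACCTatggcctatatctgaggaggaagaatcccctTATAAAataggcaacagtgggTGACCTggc
The Fabp7 window held CCAAT at 2 places, and AGGTCA and TGGGAA at 1 place each, all on the minus strand. In the Fabp1 window AGGTCA stood at 2 places on the minus strand and TATAAA 30 bases before the start. None of these letters was found in the Fabp3 window. Of 32851 promoter windows, TATAAA was in 12.4%, CCAAT in 33.8%, AGGTCA in 14.0% and TGGGAA in 21.6%, so such matches were common and are given as a description.

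Libraries held 23584609 to 57430113 gene counts (median 28114298), and 15044 to 28017 genes had at least 1 count. Summed marker levels followed the tissue labels: neuronal genes reached 4768 to 6333 CPM in the 20-month brain, cardiomyocyte genes 62567 to 74058 CPM in heart and proximal tubule genes 3601 to 9225 CPM in kidney. CPM here means counts per 1000000 counts after TMM scaling over all 54 libraries. Fold changes come from fits that scale the libraries of each fit on their own. They can thus differ from the ratio of mean CPM and, near 0, in sign. Kidney groups follow the sample titles and source names. The treatment characteristic of those samples names the other agent, and under it every sign in kidney would turn. The APPSWE cohort was more variable than the 20-month brain, with a biological coefficient of variation of 0.742 against 0.114. The library s139 is labelled APPSWE vehicle, while a supplementary table of the study heads it as Cmpd60, so its effect is given beside the results it moves. Intervals are nominal 95% intervals from the SE and a normal distribution, so they are narrower than edgeR's test would give. For Fabp3 in heart the interval, from 0.0048 to 0.374, left out 0, while the unadjusted p in edgeR was 0.0612. Whether an interval includes 0 is therefore not read as a test.

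Fabp3 and Fabp4 were highest in heart. In vehicle mice Fabp3 stood at 38.1 ± 3.60 CPM (SD, n = 6) in brain, 3331 ± 199 CPM (n = 6) in heart and 58.0 ± 10.5 CPM (n = 5) in kidney, so its heart mean was 87.4 times its brain mean and 57.5 times its kidney mean. Fabp4 stood at 530.3 ± 108 CPM in heart and 71.2 ± 30.7 CPM in kidney, and brain libraries held 0 to 2 counts of it. Neither gene overlapped between any pair of tissues. The share of all genes that separate between tissues was not computed, so this is a description, also for Fabp5 below.

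Fabp5 and Fabp7 were highest in brain. Fabp5 was 42.4 ± 6.69 CPM in vehicle brain, 26.3 ± 5.73 CPM in heart and 5.86 ± 0.842 CPM in kidney, with no overlap between tissues. Fabp7 was 30.2 ± 7.85 CPM in brain, 6.13 ± 2.76 CPM in kidney and 0.357 ± 0.330 CPM in heart, where libraries held only 1 to 16 counts. Fabp1, the liver type, was counted in every kidney library at 11 to 115 counts and in 1 heart library with 1 count. It had 0 counts in all 32 brain libraries of both cohorts, which allows up to 3 counts or 0.0460 to 0.114 CPM per library, for counting error only.

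Between genes, levels are compared per kilobase of the longest protein-coding transcript. In vehicle brain Fabp3 (46.3 ± 4.37 CPM per kb), Fabp5 (43.0 ± 6.78) and Fabp7 (34.4 ± 8.91) lay within a narrow range, and the mean ± SD ranges of neighbours in that order overlapped. In heart the order was wide, with Fabp3 at 4047 ± 242 CPM per kb, Fabp4 at 832 ± 170.2 and Fabp5 at 26.6 ± 5.81. In kidney Fabp4 (112 ± 48.2 CPM per kb) and Fabp3 (70.4 ± 12.8) were ahead of Fabp7 (6.97 ± 3.13), Fabp5 (5.93 ± 0.853) and Fabp1 (3.04 ± 2.72). The mean ± SD ranges of Fabp4 and Fabp3 overlapped, as did those of Fabp7, Fabp5 and Fabp1. The SD of Fabp1 was set largely by vehicle replicate 48, at 4.33 CPM against 0.625 to 1.35 CPM in the other vehicle kidneys. All these SDs are spreads between libraries. The genes were measured in the same libraries, and their order within each library was not compared.

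**Figure D1:**
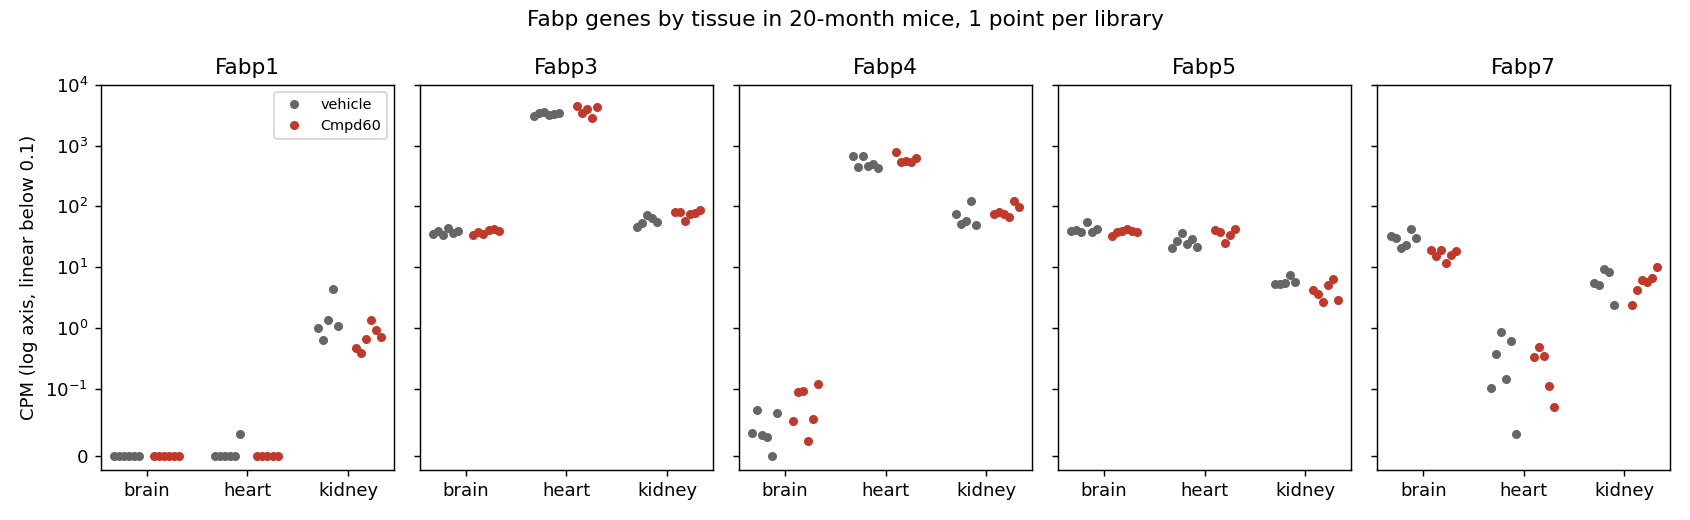
CPM of each Fabp gene (log axis, linear below 0.1) in every 20-month library of brain, heart and kidney, grey for vehicle and red for Cmpd60. Fabp3 lies between 2853 and 4492 CPM in all heart libraries, and Fabp7 is the only gene whose vehicle and Cmpd60 points separate within a tissue, in brain.

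In the 20-month brain Fabp7 was lower after Cmpd60. Vehicle libraries had a lowest value of 20.7, a median of 30.6 and a highest value of 42.9 CPM, against 11.6, 17.2 and 18.9 CPM in Cmpd60 libraries. Every Cmpd60 library lay below every vehicle library. The log2 fold change was -0.91 (SE 0.14), or 0.531 times the vehicle level. Over all 24438 genes fitted there, 0.0205% had an adjusted p below 0.05 and 0.205% were lower without overlap between groups, and nothing is read from these shares because Fabp7 was chosen in this contrast. Cmpd60 brain libraries were deeper (median 38855584.5 gene counts against 28188597.5), and with counts thinned to the smallest brain library the log2 fold change was -0.90.

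The other members had smaller differences in the same brains. Fabp5 in the 20-month brain had a lowest value of 38.0, a median of 39.9 and a highest value of 55.5 CPM with vehicle and 33.0, 38.6 and 42.5 CPM with Cmpd60, a log2 fold change of -0.18 (SE 0.087) between overlapping groups. Vehicle replicate 30 set the highest value, and without it the log2 fold change was -0.09. Fabp3 stood at 38.1 ± 3.60 CPM with vehicle and 38.4 ± 3.49 CPM with Cmpd60, a log2 fold change of -0.03 (SE 0.072). Fabp4 counts were 0 to 2 with vehicle and 1 to 7 with Cmpd60, too few for a fold change.

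Marker genes show what else moved in the same brains. Of the 10 astrocyte markers, the cells in which adult Fabp7 is best known, 5 were higher and 5 lower, with a median log2 fold change of -0.01 against 0.01 over all genes, although their summed level was higher with Cmpd60 (4491 to 4864 CPM) than with vehicle (4197 to 4510 CPM). Among 6 markers of radial glia and neural stem cells 4 were higher and 2 lower (median 0.18), and among 5 of oligodendrocyte precursors 2 were higher and 3 lower (median -0.09). All 4 markers of olfactory ensheathing glia were lower, with a median of -0.13, yet their summed levels overlapped (81.0 to 103.6 CPM with Cmpd60, 89.8 to 99.97 CPM with vehicle).

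Genes of 2 brain regions were lower together with Fabp7. All 5 cerebellum markers were lower (median log2 fold change -0.42), and their summed level ran from 181 to 423 CPM with Cmpd60 and from 323 to 555 CPM with vehicle. A list of 7 olfactory bulb genes was added after the data were seen, because 2 of the 5 genes most like Fabp7 across brain libraries, Cdhr1 and Gng4, are known from the olfactory bulb. All 7 genes of that list were lower with Cmpd60, with a median of -0.61, among them Cdhr1 of mitral cells at -0.56 (SE 0.25), Doc2g at -0.63 (SE 0.22) and Omp, the marker of olfactory sensory neurons, at -1.44 (SE 0.38). The summed level of the list was not specific to the olfactory bulb. In hearts it was 49.6 to 85.6 CPM with vehicle and 44.4 to 63.7 CPM with Cmpd60. In kidneys it was low, at 1.13 to 2.88 CPM with vehicle and 2.15 to 4.27 CPM with Cmpd60. How much of the sum in brain came from the olfactory bulb was not tested.

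Library by library, the summed olfactory bulb genes and Fabp7 ran side by side in vehicle brains. The 4 vehicle libraries with sums of 122 to 144.4 CPM held 30.5 to 42.9 CPM of Fabp7, and the other 2, with sums of 55.0 and 70.8 CPM, held 20.7 and 23.4 CPM. In Cmpd60 brains the sums were 50.7 to 97.8 CPM, and Fabp7 was 11.6 CPM in the library with the lowest sum and 15.2 to 18.9 CPM in the others. With the mean log2 level of the list as a covariate, a fit chosen after the data were seen, the log2 fold change of Fabp7 in the 20-month brain was -0.57 (SE 0.091). With cerebellum genes as the covariate it was -0.96 (SE 0.17). These fits are no test, because they use the contrast in which Fabp7 was chosen and the olfactory list was made from a gene that varied with Fabp7. The part of tissue makeup in the lower Fabp7 was not tested, and in bulk tissue fewer cells of a type and less RNA per cell cannot be told apart.

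**Figure D2:**
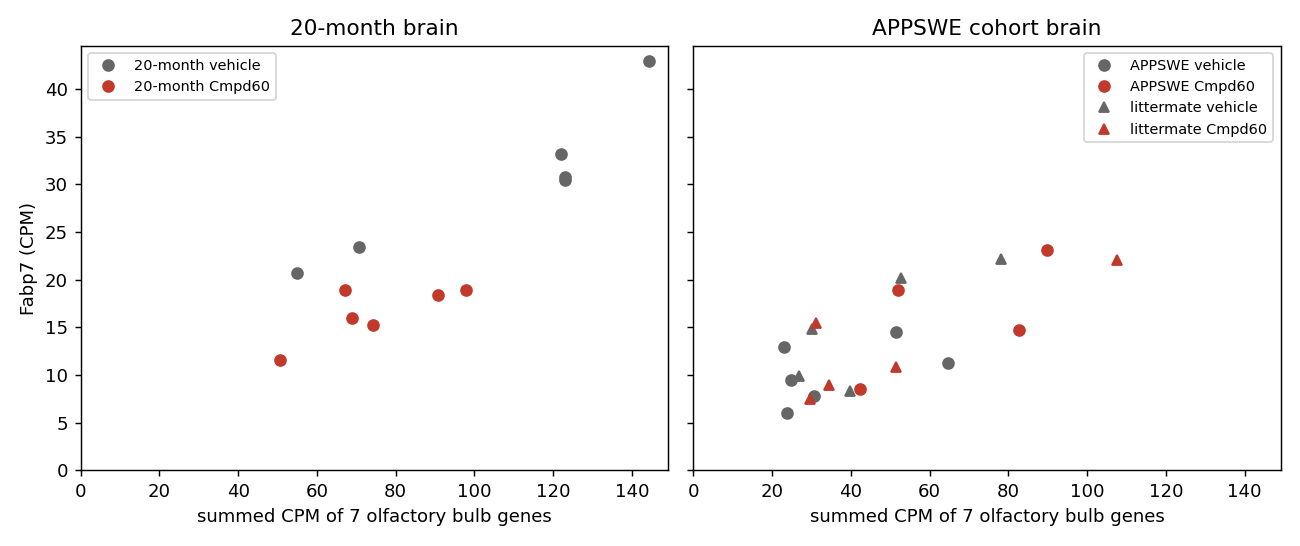
Fabp7 (CPM) against the summed CPM of 7 olfactory bulb genes, 1 point per brain library, with 20-month brains on the left and the APPSWE cohort on the right (circles APPSWE, triangles littermates, grey vehicle, red Cmpd60). The highest Fabp7 among 20-month brains (42.9 CPM) is in the library with the highest sum (144.4 CPM), and the 2 vehicle libraries with sums of 55.0 and 70.8 CPM lie above the Cmpd60 points at similar sums.

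The 5 genes most like Fabp7 over the 32 brain libraries, after group means were removed, were Myo16 (r = 0.703), Gng4 (r = 0.676), Nrip3 (r = 0.675), Cdhr1 (r = 0.665) and Kcnb2 (r = 0.647), among 14193 genes. Their log2 fold changes with Cmpd60 in the 20-month brain ran from -0.56 for Cdhr1 to 0.06 for Kcnb2. The likeness is a description over libraries of 2 cohorts that differ in depth. For Fabp5 over the same libraries the closest genes were Cwc25 (r = 0.782), Golt1b (r = 0.755) and the mitochondrial gene Immt (r = 0.711), none of which is among the 5 closest to Fabp7.

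Genes that act with fatty acid binding proteins are given for the 20-month brain as a description, since the same contrast chose Fabp7. Of 15 genes for uptake and activation of fatty acids 6 were higher and 9 lower (median log2 fold change -0.05), with the fatty acid transport protein genes Slc27a5 at 0.45 (SE 0.34) and Slc27a3 at -0.38 (SE 0.12) furthest from 0. For PPAR and RXR regulators the counts were 2 higher and 6 lower, with Rxra at 0.15 (SE 0.049). The lipid droplet and lipolysis list had 7 higher and 6 lower. Among 12 Notch genes and other regulators of Fabp7, 5 were higher and 7 lower, with Pax6, a transcription factor of radial glia, at -0.27 (SE 0.11) and the Notch target Hes5 at -0.15 (SE 0.11). The list of other intracellular lipid binding proteins had 3 of 6 genes higher and 3 lower.

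Fabp7 in the APPSWE cohort, whose libraries had no part in the choice of Fabp7 by its fall in the 20-month brain, was measured in 4 brain groups. APPSWE vehicle libraries had a lowest value of 5.96, a median of 10.3 and a highest value of 14.5 CPM, and the 4 APPSWE Cmpd60 libraries stood at 8.47, 14.7, 18.9 and 23.1 CPM. Littermate vehicle libraries stood at 8.35, 9.88, 14.9, 20.1 and 22.1 CPM, and littermate Cmpd60 libraries at 7.44, 8.94, 10.8, 15.4 and 22.1 CPM. All pairs of groups overlapped, and 3 of the 4 APPSWE Cmpd60 values lay above the highest APPSWE vehicle value.

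No member passed an adjusted p below 0.05 in any of the 5 comparisons of the cohort, in edgeR's quasi-likelihood test over 23273 genes. The background shares there were 0% for Cmpd60 in APPSWE brain, 0% for Cmpd60 in littermate brain, 0.00859% for genotype in vehicle brain, 0% for genotype in Cmpd60 brain and 0% for the interaction. At an unadjusted p below 0.05 stood 2044 genes (8.78%) for Cmpd60 in APPSWE brain, 875 (3.76%) in littermate brain, 314 (1.35%) for genotype in Cmpd60 brain and 1116 (4.8%) for the interaction. Among the members, Fabp3 for genotype in Cmpd60 brain was the only one below it in these 4 comparisons.

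For Fabp7 the log2 fold change with Cmpd60 was 0.61 (SE 0.35, edgeR adjusted p = 0.697) in APPSWE brain and -0.27 (SE 0.35, adjusted p = 1) in littermate brain. With s139, whose 14.5 CPM was the highest vehicle value, counted as Cmpd60, the APPSWE effect was 0.71 (SE 0.34, adjusted p = 0.478). The difference between the effects in the labelled groups was 0.88 (SE 0.49, adjusted p = 1). Between genotypes it was -0.53 (SE 0.33, adjusted p = 0.751) with vehicle and 0.35 (SE 0.37, adjusted p = 1) with Cmpd60. These comparisons share groups, so the values are not independent of each other. The intervals were wide: for Cmpd60 in littermates, from -0.95 to 0.41, and in APPSWE mice, from -0.07 to 1.30.

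Beside Fabp7, the olfactory bulb genes were higher with Cmpd60 in APPSWE brains. Their summed level was 23.0 to 64.6 CPM with vehicle and 42.3 to 89.9 CPM with Cmpd60, and 7 of 7 were higher, 0 of them past the adjusted threshold. With the list as a covariate the log2 fold change of Fabp7 in APPSWE brain was 0.17 (SE 0.39). This fit is no test either. The list was made because Cdhr1 varied with Fabp7 over all 32 brain libraries, those of this cohort among them. The log2 fold change of Fabp7 in APPSWE brain was 0.24 (SE 0.34) without the 5 libraries of the cohort in which fewer than 17000 genes were detected, another alternative chosen after the data were seen. In littermates the sums overlapped, at 26.9 to 78.1 CPM with vehicle and 29.5 to 107.5 CPM with Cmpd60.

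Vehicle brains of the 20-month mice held 30.2 ± 7.85 CPM of Fabp7 and 106 ± 35.1 CPM of the olfactory bulb genes, and vehicle littermates of 6 to 7 months held 15.1 ± 6.08 CPM and 45.5 ± 20.8 CPM. Age and cohort cannot be told apart here, so the values are set side by side without a test.

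**Figure D3:**
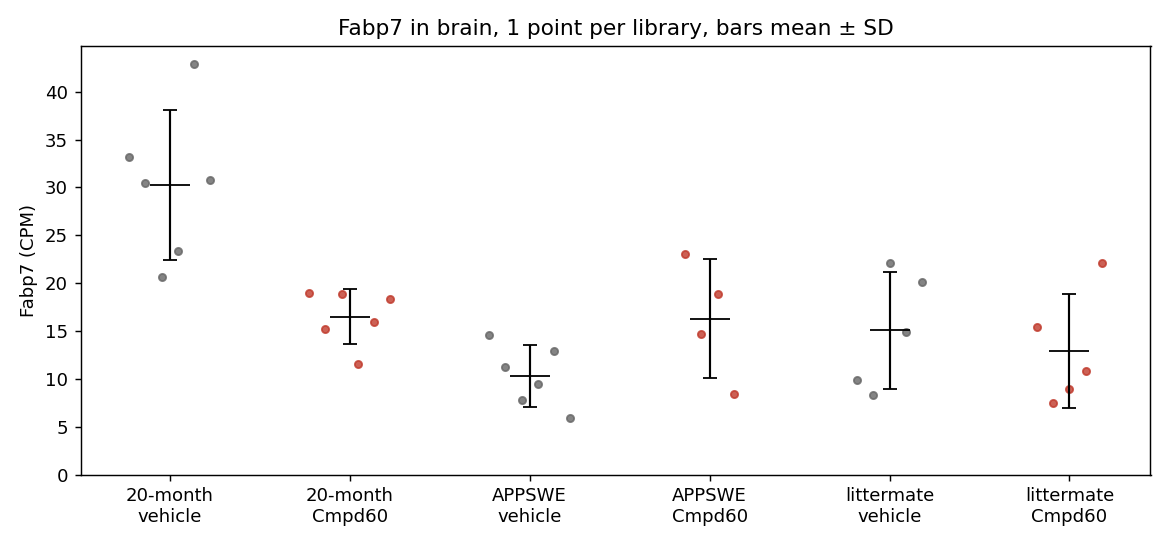
Fabp7 (CPM) in each brain library of the 6 brain groups, with bars for mean ± SD. The 20-month Cmpd60 libraries (11.6 to 18.9 CPM) lie below all 20-month vehicle libraries (20.7 to 42.9 CPM), and the 4 groups of the APPSWE cohort overlap.

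Of the remaining members, Fabp3 in the cohort's brains stood at 35.9 ± 6.36 CPM in APPSWE vehicle, 31.8 ± 1.90 CPM in APPSWE Cmpd60, 36.8 ± 7.51 CPM in littermate vehicle and 42.7 ± 8.09 CPM in littermate Cmpd60 libraries. With Cmpd60, the 4 APPSWE libraries (29.4, 31.5, 32.5 and 33.9 CPM) all lay below the 5 littermate libraries (35.0, 38.4, 40.0, 44.3 and 55.9 CPM), a log2 fold change of -0.43 (SE 0.18, adjusted p = 1 in edgeR). Of all genes tested in that comparison, 0.49% were lower without overlap. The library s139 held 39.1 CPM, so with it counted as Cmpd60 the groups overlapped and the log2 fold change was -0.35 (SE 0.17).

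Fabp5 had means of 30.4 ± 8.01 CPM (APPSWE vehicle), 26.7 ± 8.53 CPM (APPSWE Cmpd60), 37.4 ± 7.02 CPM (littermate vehicle) and 31.5 ± 2.70 CPM (littermate Cmpd60), which overlapped. Its log2 fold change with Cmpd60 was -0.23 (SE 0.21, adjusted p = 0.933 in edgeR) in APPSWE and -0.30 (SE 0.21, adjusted p = 1) in littermate brain. Without the 5 libraries under 17000 detected genes, the Fabp5 effect in APPSWE brain was -0.58 (SE 0.19, adjusted p = 0.339). Fabp4 was listed at 0 in 13 of the 20 libraries. Of the pathway lists, 0 genes passed the adjusted threshold in any comparison of the cohort.

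In the heart no member passed the adjusted threshold, where 1.18% of 19452 genes did, and 1 of 4 members tested had an unadjusted p below 0.05, against 13.5% of genes. That member was Fabp5. Vehicle hearts had a lowest value of 20.8, a median of 25.2 and a highest value of 36.2 CPM, and Cmpd60 hearts stood at 25.3, 33.7, 38.5, 41.0 and 41.7 CPM. The groups overlapped, with 3 of the 5 Cmpd60 libraries above the highest vehicle library. The log2 fold change was 0.45 (SE 0.15, unadjusted p = 0.0103 and adjusted p = 0.191 in edgeR).

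Fabp3, the most abundant member of the heart, had a lowest value of 3052, a median of 3354 and a highest value of 3599 CPM with vehicle, and 2853, 3468, 4081, 4251 and 4492 CPM with Cmpd60. Cmpd60 hearts thus spanned both ends of the vehicle range, and the log2 fold change was 0.19 (SE 0.094, adjusted p = 0.400 in edgeR). Its pseudogene Fabp3-ps1 held 11.4 ± 1.5 CPM with vehicle and 17.0 ± 6.57 CPM with Cmpd60, and since only unique alignments were counted, reads that fit both copies are missing from both. Fabp4 stood at 437 to 669.7 CPM with vehicle and 529 to 775 CPM with Cmpd60, a log2 fold change of 0.17 (SE 0.14, adjusted p = 0.644). Fabp7 had 1 to 16 counts per heart library and is given no fold change.

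Markers of the cell types known for Fabp4, capillary endothelium, adipocytes and macrophages, were read beside it in the heart. All 6 endothelial markers were higher with Cmpd60 (median log2 fold change 0.17, 0 past the adjusted threshold), with a summed level of 1168 to 1242 CPM with vehicle and 1234 to 1603 CPM with Cmpd60. All 6 adipocyte markers were lower (median -0.56, 0 past the threshold), over sums of 2.34 to 277 CPM with vehicle and 6.42 to 203.8 CPM with Cmpd60. All 5 macrophage markers were higher (median 0.32, 0 past the threshold), over sums of 133 to 208 CPM with vehicle and 171 to 212 CPM with Cmpd60. An unadjusted p below 0.05 in edgeR was held by 2 endothelial, 1 adipocyte and 3 macrophage markers, against 13.5% of all genes tested. The part of these cells in the Fabp4 and Fabp5 levels was not tested.

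Around the Fabp genes in the heart, 1 of 15 genes for uptake and activation of fatty acids passed the adjusted threshold. Acsl6, a long-chain acyl-CoA synthetase, was 27.4 to 34.4 CPM with vehicle and 38.8, 42.9, 44.1, 48.3 and 49.1 CPM with Cmpd60, and rose by a log2 fold change of 0.46 (SE 0.081, adjusted p = 0.0157 in edgeR). For 9 PPAR and RXR regulators, 14 lipid droplet and lipolysis genes, 10 Notch and Fabp7 regulators and 4 other lipid binding proteins the count past the threshold was 0. The genes nearest to it were lipoprotein lipase, Lpl (0.27, adjusted p = 0.0617), and the triglyceride lipase Pnpla2 (-0.27, adjusted p = 0.0925).

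Over the 11 heart libraries, the genes most like Fabp3 after removal of group means were Lgals4 (r = 0.952), Lmod2 of the thin filament (r = 0.951) and Rnaseh2c (r = 0.927), followed by the myosin light chain Myl3 (r = 0.926) and Zfp949 (r = 0.923). For Fabp4 the leading genes were Rpl7a-ps5 (r = 0.948), Traf3ip1 (r = 0.946) and the ribosomal gene Rpl38 (r = 0.937). By ranks (Spearman) these 3 stood at 0.9, 0.691 and 0.927. For both members 13210 genes were searched over few libraries, where high values can arise by chance, so they are a description.

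In the kidney no member passed the adjusted threshold either, with a background of 0.3% of 20698 genes. Of the 5 members 3, Fabp1, Fabp3 and Fabp5, had an unadjusted p below 0.05, against 11.3% of genes. Fabp3 in vehicle kidneys stood at 45.01, 53.4, 54.6, 64.9 and 72.0 CPM, and in Cmpd60 kidneys it had a lowest value of 57.0, a median of 78.7 and a highest value of 87.8 CPM. Of the 6 Cmpd60 libraries 5 lay above all vehicle libraries. The log2 fold change was 0.39 (SE 0.13, unadjusted p = 0.00729 and adjusted p = 0.237 in edgeR).

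Fabp5 had a lower mean with Cmpd60 in the kidney. Vehicle libraries stood at 5.36, 5.37, 5.55, 5.66 and 7.35 CPM, and Cmpd60 libraries had a lowest value of 2.65, a median of 3.90 and a highest value of 6.31 CPM, with 5 of 6 below every vehicle library. The log2 fold change was -0.51 (SE 0.21, unadjusted p = 0.0317 and adjusted p = 0.391 in edgeR). Without vehicle replicate 48, which held the 7.35 CPM, it was -0.41, the value nearest to 0 with 1 library left out. Fabp4 ranged from 50.1 to 123 CPM with vehicle and from 67.6 to 123 CPM with Cmpd60 (0.28, SE 0.22, adjusted p = 0.663). Without vehicle replicate 48, which held the highest vehicle value of Fabp4, its log2 fold change was 0.58.

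Fabp1 was low in the kidney, at 0.625, 1.01, 1.08, 1.35 and 4.33 CPM with vehicle and from 0.390 to 1.37 CPM (median 0.684) with Cmpd60. The log2 fold change was -1.15 (SE 0.48, adjusted p = 0.390 in edgeR), and it rested on vehicle replicate 48: without that library it was -0.43. Fabp7 stood at 2.41 to 9.34 CPM with vehicle and 2.41 to 10.2 CPM with Cmpd60, a log2 fold change of -0.05 (SE 0.35, adjusted p = 0.969) with an interval from -0.73 to 0.63. The closest genes to Fabp1 over the 11 kidney libraries were Plcl2 (r = 0.828) and Zfp941 (r = 0.822). By ranks (Spearman) the values were 0.864 and 0.4455. With 13659 genes searched over so few libraries, high values can arise by chance, so they are a description.

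Of 5 proximal tubule markers in the kidney 4 were lower and 1 higher (median -0.23, 0 past the adjusted threshold), with sums of 7078 to 8736 CPM with vehicle and 3601 to 9225 CPM with Cmpd60. Of the 6 hepatocyte markers 3 were higher and 3 lower, and Ttr, the thyroid hormone carrier transthyretin, fell (-1.43, SE 0.21, adjusted p = 0.00679). Of the 16 genes for uptake and activation of fatty acids 0 passed the threshold, with the capillary lipase anchor Gpihbp1 (0.56, adjusted p = 0.0725) nearest to it. Of 14 lipid droplet genes 11 were higher and 3 lower, 0 past the threshold, led by the droplet coat gene Plin2 (0.52, adjusted p = 0.128). The 10 PPAR and RXR regulators, 10 Notch and Fabp7 regulators and 4 other lipid binding proteins likewise had 0 genes past it.

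**Figure D4:**
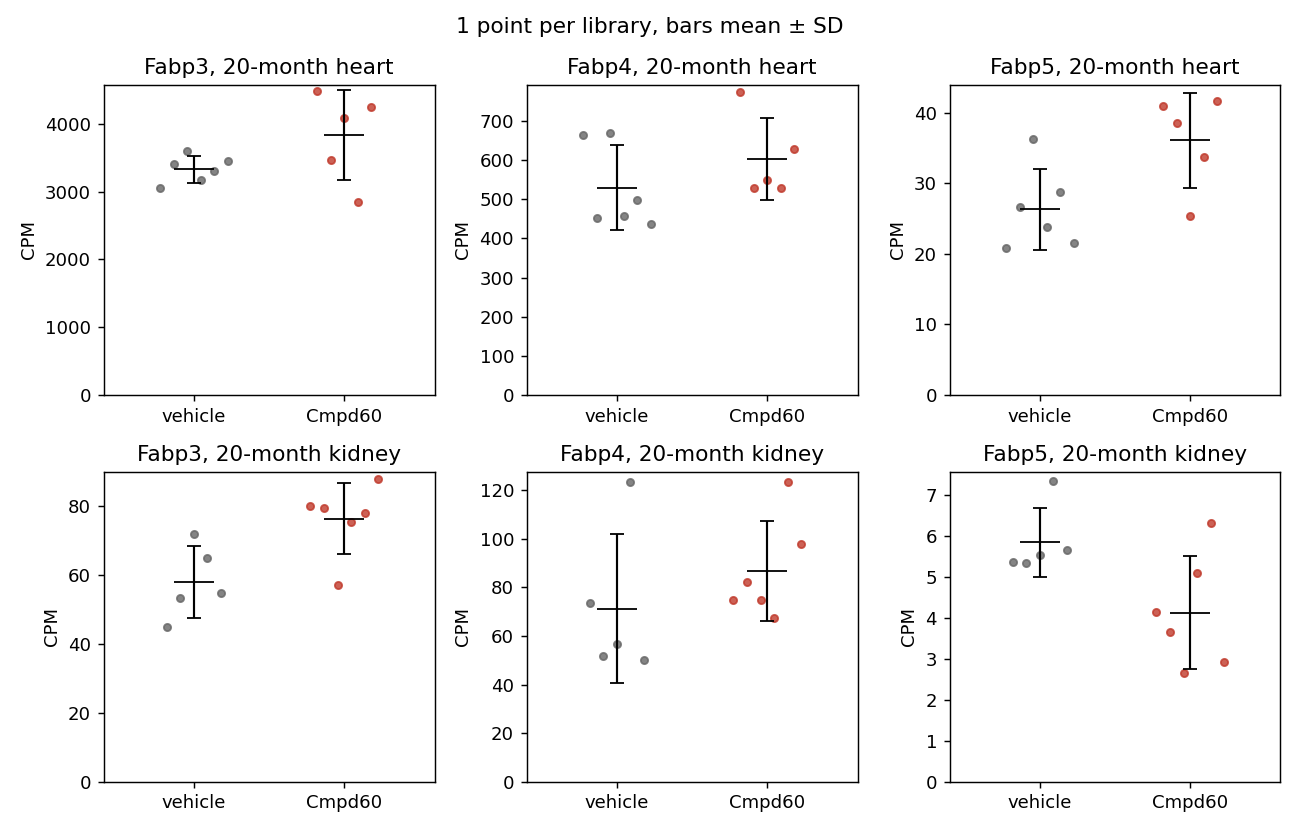
CPM of Fabp3, Fabp4 and Fabp5 in each 20-month heart and kidney library, vehicle in grey and Cmpd60 in red, with bars for mean ± SD. Fabp5 means are 26.3 and 36.0 CPM in heart and 5.86 and 4.13 CPM in kidney, and the groups overlap in all 6 panels.

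The Cmpd60 effects in heart and kidney, which for Fabp5 had opposite signs, were compared as a difference in a fit of all 34 libraries of 20-month mice over 27105 genes. For Fabp5 the difference, heart minus kidney, was 0.95 on the log2 scale (SE 0.23, unadjusted p = 0.000258), and the adjusted p of 0.0595 in edgeR missed the threshold that 0.35% of genes passed. It was the only member below an unadjusted 0.05, where 11.7% of genes were. With DESeq2 the adjusted p was 0.00939 for the same size, but DESeq2 passed 515 genes in this comparison, against 95 with edgeR and 60 with limma-voom. With limma-voom Fabp5 did not pass. Leaving out 1 library at a time gave edgeR adjusted p values from 0.00995 (without Cmpd60 kidney replicate 54) to 0.115. For Fabp3 the difference was -0.19 (SE 0.16, adjusted p = 0.711), and for Fabp4 it was -0.10 (SE 0.24, adjusted p = 1). These values hold for kidney groups by titles and source names. With kidney groups by the treatment characteristic, a fit added after the data were seen, the difference was -0.04 (SE 0.23, adjusted p = 1 in edgeR) for Fabp5, 0.60 (SE 0.16, adjusted p = 0.0275) for Fabp3 and 0.47 (SE 0.24, adjusted p = 0.324) for Fabp4, so the values depend on which label is used. Libraries were treated as separate mice in both fits.

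**Figure D5:**
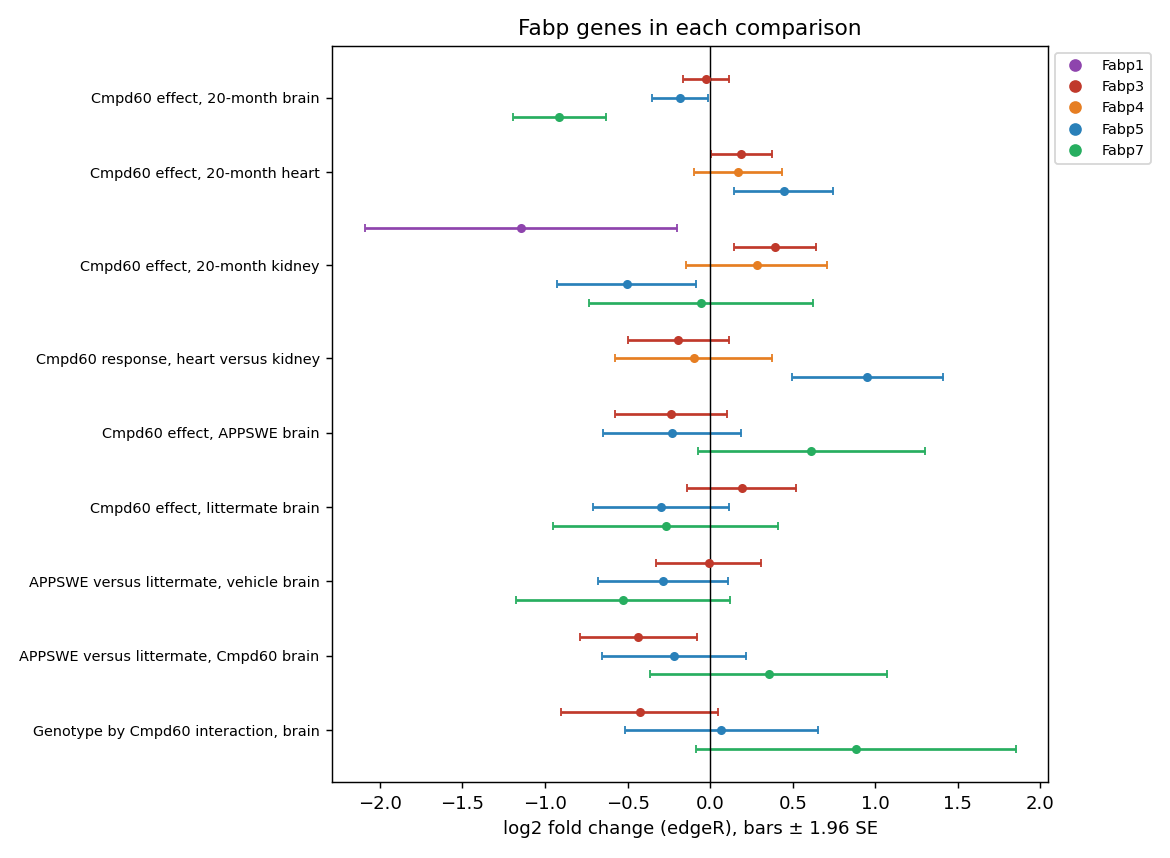
Log2 fold change of each Fabp gene in each comparison, for the 29 pairs of gene and comparison in which every group had a median of at least 10 counts. Bars are nominal 95% intervals from the SE and a normal distribution. They are narrower than edgeR's test would give, so a bar that leaves out 0 is not read as a test. Fabp7 in the 20-month brain (-0.91), in which it was chosen, lies apart, and Fabp5 lies above 0 in heart (0.45) and below 0 in kidney (-0.51), with kidney groups by titles and source names.

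Of the other genes of the fold family, Fabp2 of the intestine, Fabp6 of the ileum, Fabp9 of the testis and Fabp12 had at most 4 counts in any library, so their levels were at or near the floor of 3 counts. Rbp7, a carrier of endothelium and adipose tissue, was 13.8 ± 4.03 CPM in vehicle and 22.02 ± 6.93 CPM in Cmpd60 hearts (0.66, SE 0.22, adjusted p = 0.171 in edgeR).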

How the data were processed

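RNA of brain, heart and kidney was sequenced after selection of poly(A) RNA and preparation of strand-specific libraries. The authors deposited raw counts per Ensembl gene, 1 table per library, made with FastQC, Trimmomatic 0.32, HISAT2 2.1.0 and HTSeq 0.11.0, which counted unique alignments on the stated strand. The genome build is not given in the sources used here. Names were found for 32651 of 54232 genes, of which 2667 older symbols were updated. The 5 summary lines of HTSeq were left out.

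Each tissue, the APPSWE cohort and, for heart against kidney, all 34 libraries of 20-month mice were fitted with edgeR 4.0.16 (R 4.3.3, TMM, quasi-likelihood test, a minimum count of 3 in 3 or more libraries), with Benjamini-Hochberg adjustment over all genes tested and a threshold of 0.05. Alternatives were DESeq2 1.42.0, limma-voom 3.58.1, other filters and each library left out. Scripts were tested on simulated data. No duplicate libraries were found. Which tissues shared mice is unknown. Each p value sets a difference between groups against a spread estimated from all libraries of its fit. For heart against kidney these included the brain libraries.

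The members and lists were chosen with earlier results of these data known. Named genes were the 5 members in every comparison, up to 6 list genes past the threshold (in the 20-month brain the largest fold changes, without a test) and the 5 genes with the highest Pearson correlation to each member. List genes named beyond that, as nearest to the threshold, and the olfactory bulb list were chosen after their values were seen. 1 gene of the list of other lipid binding proteins is not reported here.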

Additional observations from a re-analysis of the deposited data

Results flagged for a closer look

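Among 34 pairs of a gene and a group of 4 to 6 libraries, each tested for a value far from the others, 4 values of the Fabp genes stood apart. Dixon's criterion was used, which flags about 1 in 20 by chance, and the pairs share libraries. Fabp1 was 4.33 CPM in vehicle kidney replicate 48, against 0.625 to 1.35 CPM in the other vehicle kidneys. The same library held 7.35 CPM of Fabp5, against 5.36 to 5.66 CPM. Fabp5 was 55.5 CPM in 20-month vehicle brain replicate 30, against 38.0 to 42.8 CPM. Fabp3 was 23.2 CPM in the APPSWE vehicle library s146, against 36.1 to 40.6 CPM. The cause of these values was not tested.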

How the results depend on the processing

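Among log2 fold changes of the Fabp genes recomputed under other settings, 676 kept their direction and their side of the threshold, 25 turned, 10 lost the call and 5 gained it. These counts do not measure robustness. Of the 29 fold changes only that of Fabp7 in the 20-month brain had a call to lose. In the APPSWE cohort, libraries were also left out of comparisons in which their group had no part. In the 20-month brain, where Fabp7 was chosen and its call is therefore no test, the count of members past the adjusted threshold was 1 (Fabp7), and it was 0 with limma-voom and 0 with cerebellum genes as a covariate. Leaving out 1 library gave 0 to 1 (0 without Cmpd60 replicates 33, 34, 35 or 37 or vehicle replicates 27, 28, 31 or 32), while the log2 fold change of Fabp7 stayed between -1.0 and -0.79. Between heart and kidney 0 members passed, against 1 (Fabp5) with DESeq2, 1 (Fabp3) with kidney groups by the treatment characteristic and 0 to 1 with 1 library left out (1 without Cmpd60 heart 70, vehicle heart 64, Cmpd60 kidney 53 or Cmpd60 kidney 54). Scaling by total counts lowered vehicle heart levels to 2512 CPM for Fabp3, 402 CPM for Fabp4 and 19.9 CPM for Fabp5.

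Directions turned for the following effects. Fabp3 was 0.0348 in the 20-month brain with cerebellum genes as a covariate and -0.0581 to 0.0199 with 1 library left out. Fabp7 in kidney was 0.011 with limma-voom and -0.27 to 0.15 with 1 library left out. Fabp3 in littermate brain was -0.0794 without libraries under 17000 detected genes, and for genotype in vehicle brain -0.10 to 0.0786 with 1 library left out. The interaction of Fabp5 was -0.0481 with limma-voom, -0.10 with s139 as Cmpd60, -0.39 without libraries under 17000 detected genes and -0.20 to 0.22 with 1 library left out. The heart and kidney difference of Fabp4 was -0.39 to 0.0203 with 1 library left out. With kidney groups by the treatment characteristic the difference was 0.60 for Fabp3, 0.47 for Fabp4 and -0.0381 for Fabp5, and every sign within kidney turns. The cause was not tested. The olfactory and cerebellum covariate fits, the kidney grouping by the treatment characteristic and the fits without libraries of few detected genes were chosen after seeing the data. No paired analysis was possible because the groups compared share no replicate numbers. Depth limits Fabp1 outside kidney, Fabp4 in brain and Fabp7 in heart.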
